A study of Mus musculus with 14 samples.

Results

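The transcripts of 10 genes of the hyaluronan and versican matrix and of its proteases were followed in early mouse forelimb buds with and without mesenchymal *Smad4*. They were *Has2*, *Has3*, *Hapln1*, *Vcan*, *Cd44*, *Hyal2*, *Adamts1*, *Adamts5*, *Adamts9* and *Adamts20*, each found by its symbol among the 23284 genes counted in every embryo. All 10 were among the 12393 genes that passed the filter on low counts, which asked for at least 1 CPM (a read count scaled by the total count of the library) in at least 3 of the 14 embryos.

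The RNA-seq compared wild-type with mutant forelimb buds at 30 somites, called E10.0, and at 35 somites, called E10.5, with 3 wild-type and 4 mutant embryos at each stage and both forelimb buds of an embryo pooled. Wild-type embryos were *Smad4*+/+ PrxCreT/+ and mutants (*Smad4*Δ/Δc) were *Smad4*Δ/Δc PrxCreT/+, so that all embryos carried the PrxCreT transgene, on an NMRI strain per the labels. Mutants had 1 null allele of *Smad4* and 1 floxed allele that the Prrx1-driven CRE recombinase deletes in limb bud mesenchyme, while ectoderm, vessels and blood are not targeted and remain in the sample. *Smad4* itself averaged 161 ± 8.42 CPM over the 3 wild types and 39.7 ± 4.18 CPM over the 4 mutants (± SD) at the earlier stage, and 166 ± 2.27 and 37.0 ± 3.43 CPM at the later one.

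Hyaluronan is a long sugar polymer that HAS enzymes extrude from the plasma membrane. Versican (*Vcan*), a large chondroitin sulfate proteoglycan, binds to it, and the link protein encoded by *Hapln1* locks that binding. CD44 is the best known cell surface receptor of hyaluronan, HYAL2 is a hyaluronidase of the cell surface, and the secreted metalloproteases ADAMTS1, ADAMTS5, ADAMTS9 and ADAMTS20 cut versican. This matrix fills the space between mesenchymal cells of the limb bud, and loss of versican cleavage is known to leave soft tissue webbing between the digits.

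In all, 34066930 to 61691258 reads were counted on genes per embryo (median 48978053). Mutant replicates 4 and 5 of both stages stood apart from the other 10 embryos, with 1.72% to 8.05% of their reads on the ribosomal RNA precursor *Rn45s* against 0.151% to 0.478%. Results are given with these 4 embryos, and calls that change without them are named. Fits without them, with replicates 1 to 3 alone, keep all wild types. Of the mutants they keep only replicates 1 and 3 at E10.0 and replicates 1 and 2 at E10.5. The summed level of 7 limb mesenchyme markers was 1260 to 1455 CPM in wild types and 1103 to 1341 CPM in mutants at E10.0, and 1500 to 1636 and 1359 to 1568 CPM at E10.5, with none of the 7 at 0. In whole forelimb buds, fewer cells of a type and less RNA per cell cannot be told apart.

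Several of these genes are neighbours in the mm9 genome. *Hapln1* (chromosome 13, 89680241 to 89751437, plus strand) and *Vcan* (chromosome 13, 89794915 to 89882117, minus strand) lie 43.5 kb apart with their 3′ ends facing each other, and *Adamts1* (chromosome 16, 85794072 to 85803358, minus strand) and *Adamts5* (chromosome 16, 85858415 to 85901370, minus strand) lie 55.1 kb apart in tandem. *Has2* (chromosome 15, 56497182 to 56526094, minus strand) shares 182 exon bases with the opposite-strand *Has2as*, which had 2 to 10 reads per embryo. *Adamts9* (chromosome 6, 92722693 to 92893486, minus strand) shares 1381 exon bases with the opposite-strand *A730049H05Rik* and 424 with *Gm15737*, which were not counted as genes of their own. As strand was not used in the counting, reads from these would be part of the *Adamts9* value.

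The promoter sequences of the neighbours *Hapln1* and *Vcan*, and of the proteases *Adamts9* and *Adamts20*, are shown. As given below, *Vcan* and *Adamts9* were called higher in mutants at E10.0, and *Hapln1* and *Adamts20* lower at E10.5. Each sequence is the 250 bases before the annotated start in RefSeq, on build GRCm38.p6 and read 5′ to 3′ on the gene's strand. Of the 10 genes, 7 matched an entry, and *Has2*, *Has3* and *Adamts5* did not. The windows are chr13:89540386-89540635 (plus), chr13:89742513-89742762 (minus), chr6:92943535-92943784 (minus) and chr15:94404351-94404600 (minus). Capitals mark matches, on either strand, to CAGAC, the core letters of the SMAD box, which reads GTCTG when the opposite strand holds it, and to the palindrome GGCGCC, a GC-rich motif bound by SMADs of the BMP pathway; neither motif overlapped the other.
Hapln1: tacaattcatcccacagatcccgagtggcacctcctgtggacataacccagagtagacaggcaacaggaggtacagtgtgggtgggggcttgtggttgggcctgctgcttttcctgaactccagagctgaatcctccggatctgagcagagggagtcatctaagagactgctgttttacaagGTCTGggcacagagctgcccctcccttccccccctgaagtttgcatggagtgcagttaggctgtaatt
Vcan: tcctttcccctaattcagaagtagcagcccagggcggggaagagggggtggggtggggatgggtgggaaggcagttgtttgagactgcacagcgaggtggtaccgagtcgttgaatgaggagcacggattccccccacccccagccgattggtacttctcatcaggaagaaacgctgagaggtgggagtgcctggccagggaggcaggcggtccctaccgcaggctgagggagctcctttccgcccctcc
Adamts9: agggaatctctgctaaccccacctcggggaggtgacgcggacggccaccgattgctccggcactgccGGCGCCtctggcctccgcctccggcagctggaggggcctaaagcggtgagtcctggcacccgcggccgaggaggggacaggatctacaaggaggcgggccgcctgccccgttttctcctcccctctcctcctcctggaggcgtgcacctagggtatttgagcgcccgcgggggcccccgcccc
Adamts20: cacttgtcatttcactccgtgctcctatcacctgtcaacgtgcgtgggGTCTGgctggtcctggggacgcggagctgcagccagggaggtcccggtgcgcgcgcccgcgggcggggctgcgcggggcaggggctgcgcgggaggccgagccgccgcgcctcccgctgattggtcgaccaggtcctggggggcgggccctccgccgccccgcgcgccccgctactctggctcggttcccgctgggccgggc
CAGAC was found once each in the windows of *Hapln1* and *Adamts20*, and in 42.2% of all 32851 promoter windows. GGCGCC was found once, in the *Adamts9* window, and in 9.59% of all windows. Neither was in the windows of *Vcan*, *Cd44*, *Hyal2* or *Adamts1*, and these matches describe letters only.

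Levels can be compared between genes only per exon length, as normalised reads per kb of exon (RPKM). In wild-type forelimb buds at E10.0 the highest level was that of *Hyal2* (41.6 RPKM), followed by *Hapln1* (21.3), *Vcan* (18.8), *Adamts1* (8.20), *Has2* (6.04), *Cd44* (2.14), *Adamts9* (1.29), *Adamts20* (0.967), *Has3* (0.558) and *Adamts5* (0.466). The embryos of *Hapln1* and *Vcan* overlapped on this scale, as did those of *Has3* and *Adamts5*, and all other neighbours in the order were apart. In mutants at E10.5 the order was *Hyal2* (30.3 RPKM), *Vcan* (29.1), *Hapln1* (13.4), *Has2* (8.77), *Adamts1* (6.68), *Adamts9* (2.06), *Cd44* (1.37), *Adamts5* (1.25), *Adamts20* (0.636) and *Has3* (0.589). There the embryos of *Hyal2* and *Vcan*, of *Has2* and *Adamts1*, of *Cd44* and *Adamts5* and of *Adamts20* and *Has3* overlapped. By these means *Has2* stood above *Adamts1* in mutants at E10.5, where their embryos overlapped, and below it in wild type at E10.0, and *Adamts5* left the lowest place.

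**Figure D1:**
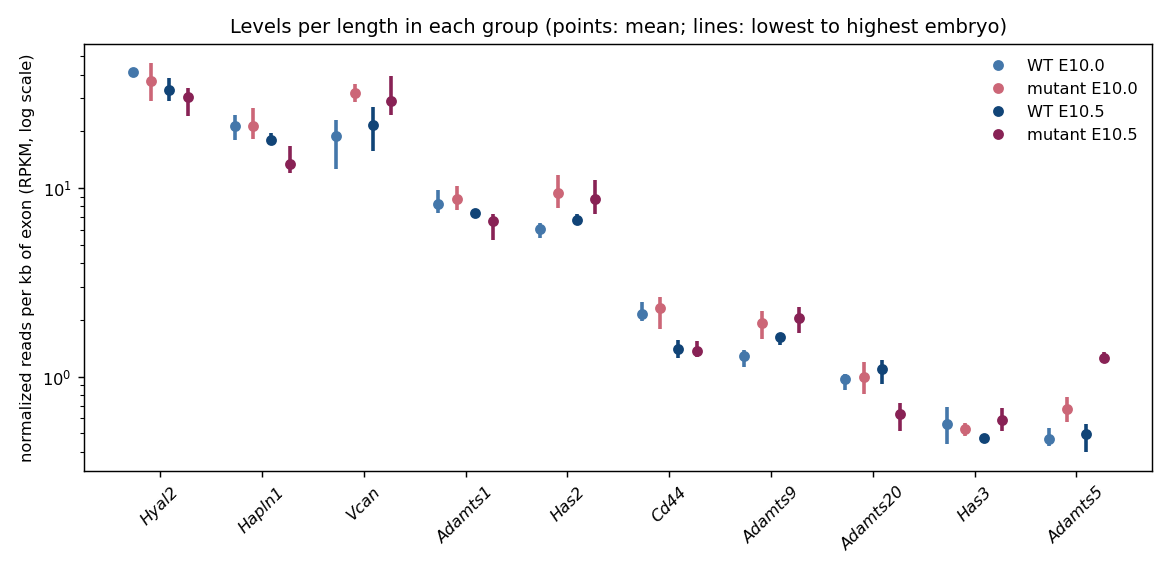
Level of each gene per exon length (vertical axis, RPKM on a log scale) in the 4 groups, ordered by wild type at E10.0. Points are group means and lines run from the lowest to the highest embryo; *Adamts5* in mutants at E10.5 (mean 1.25 RPKM) sits above the other 3 groups (means 0.466 to 0.677).

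At E10.0, 4 of the 10 genes were upregulated in mutants and none was downregulated. They were the hyaluronan synthase *Has2*, the proteoglycan *Vcan* and the proteases *Adamts5* and *Adamts9*, and they rose 1.45- to 1.69-fold. Over all tested genes, 3.33% were upregulated and 3.28% downregulated (413 and 406 genes), or 519 and 313 genes when *Rn45s* reads were left out of the scaling. The median log2 fold change of the 10 genes was 0.10, beside -0.02 over all tested genes. Calls here and below need an adjusted *P* of at most 0.1 (edgeR's exact test, Benjamini-Hochberg method over all tested genes) and at least a 1.2-fold difference. The same 4 genes, and no other of the 10, had wild-type and mutant embryos that did not overlap, as was true of 17.8% of all tested genes.

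*Has2*, the main hyaluronan synthase of the early embryo, was at 26.1, 27.7 and 23.1 CPM in the wild-type embryos at E10.0 and at 49.5, 38.0, 38.2 and 33.2 CPM in the mutants. Every mutant was above every wild type. Its log2 fold change was 0.63 (SE 0.14, adjusted *P*=0.00142), a 1.55-fold rise. Mutant replicates 4 and 5 averaged 0.28 lower on the log2 scale than the other mutants, and with replicates 1 to 3 alone the log2 fold change was 0.79. *Has2* remained upregulated in all 24 alternative fits, with adjusted *P* from 1.29e-07 to 0.0470.

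At E10.5, *Has2* was at 27.4, 28.1 and 30.9 CPM in the wild types and at 46.7, 39.4, 30.9 and 31.7 CPM in mutants. The lowest mutant and the highest wild type had nearly the same value. The log2 fold change of 0.37 (SE 0.15) did not pass the test (adjusted *P*=0.215). Without replicates 4 and 5 it was 0.59, with an adjusted *P* of 0.000347, where the only mutants left were replicates 1 and 2. Over all 24 alternatives the adjusted *P* ran from 0.000347 to 0.609.

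*Has3*, another hyaluronan synthase, was measured with 93 to 213 reads per embryo and ranged from 2.59 to 4.07 CPM over the 14 embryos. It passed the test in no comparison. At E10.5 its mutants (3.03 to 4.04 CPM) were above its wild types (2.73 to 2.88 CPM), but the difference of 0.32 in log2 did not pass (adjusted *P*=0.608). Among the transcripts of *Has1*, *Has2* and *Has3*, *Has2* made up 90.2% ± 2.07 per length in the 3 wild types and 93.6% ± 1.35 in the 4 mutants (± SD) at E10.0. At E10.5 these shares were 92.5% ± 0.442 and 91.7% ± 1.89. *Has2* was therefore the prevailing synthase transcript in all 4 groups.

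**Figure D2:**
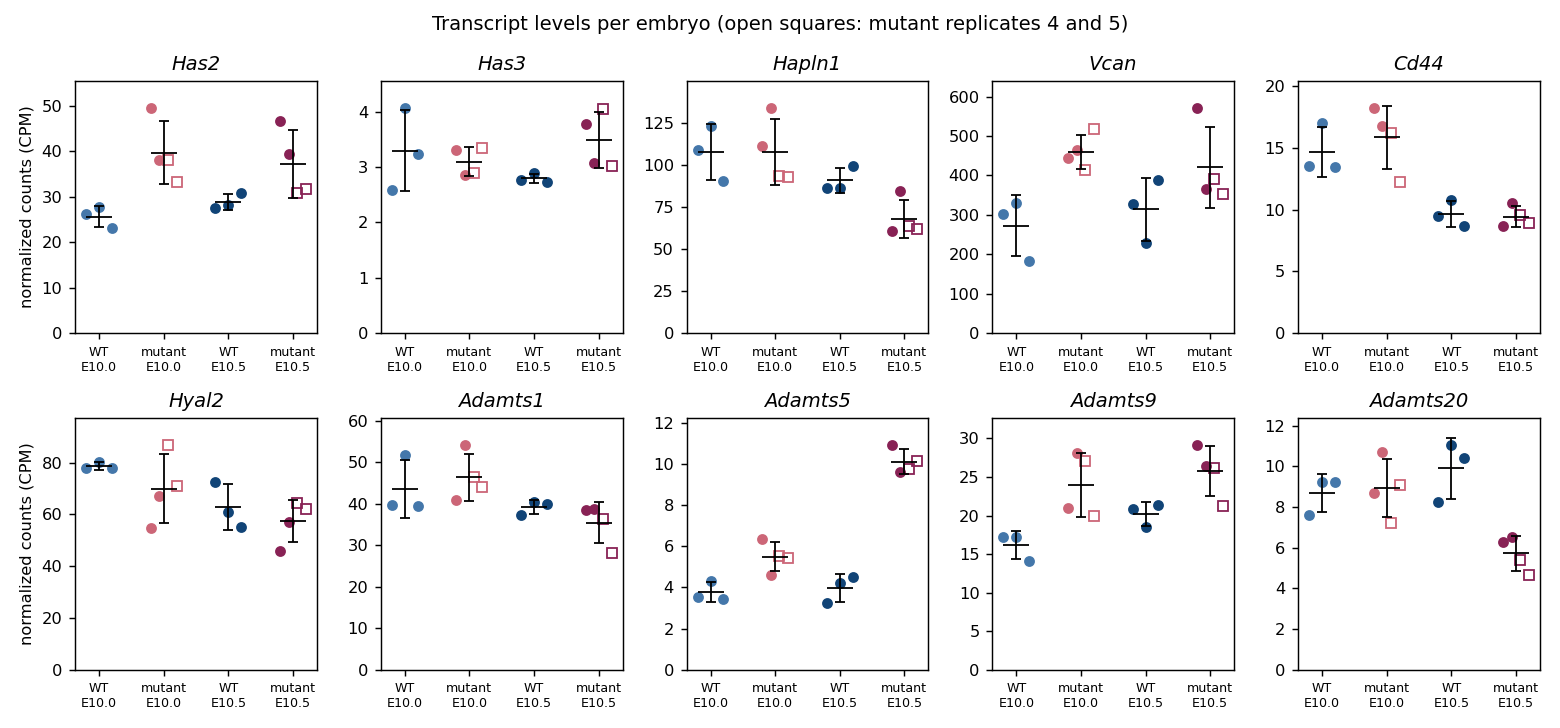
Normalised counts (vertical axes, CPM from 0) of the 10 genes in each embryo of the 4 groups, with the group mean and SD as black bars; mutant replicates 4 and 5 are open squares. *Has2* in mutants at E10.0 lies between 33.1 and 49.5 CPM, above all wild types, and *Adamts5* in mutants at E10.5 between 9.61 and 10.9 CPM.

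*Vcan* at E10.0 was at 303, 331 and 184 CPM in the wild types and at 445, 464, 414 and 518 CPM in mutants. All mutants were above all wild types, and wild-type replicate 3 was far below the other 2. This was a log2 fold change of 0.76 (SE 0.27, adjusted *P*=0.00597) and a 1.69-fold rise. Without that wild-type replicate 3 it fell to 0.55 and no longer passed (adjusted *P*=0.152), the only 1 of 24 alternatives in which *Vcan* lost its call.

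*Vcan* at E10.5 was at 328, 229 and 388 CPM in the wild types and at 571, 365, 392 and 354 CPM in mutants. The groups overlapped, and the spread within wild type (315 ± 80.3 CPM) and mutants (420 ± 102 CPM) was wide. The log2 fold change of 0.42 (SE 0.27) did not pass the test (adjusted *P*=0.387). With replicates 1 to 3 alone it was 0.58 and did not pass either (adjusted *P*=0.160).

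*Vcan* has a long transcript, with 14467 exon bases in the annotation, and it varied with other long transcripts. The median of the 1379 tested genes of at least 8000 exon bases was lowest in wild-type replicate 3 at E10.0 (-0.13 from the mean of the 14 embryos, log2), where *Vcan* was 0.98 below its own mean. It was next lowest in wild-type replicate 2 at E10.5 (-0.10), where *Vcan* was 0.66 below its mean, and highest in mutant replicate 1 at E10.5 (0.14), where *Vcan* was 0.65 above. Pearson's *r* between both was 0.95 over the 14 embryos, given as a description of libraries that fall into 4 groups. For the other genes *r* was 0.77 (*Has2*), 0.72 (*Adamts9*), 0.52 (*Adamts5*) and -0.51 (*Hyal2*, with 1893 exon bases the shortest), and within ±0.25 for the remaining 5.

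These long genes had a median log2 fold change of 0.11 between genotypes at E10.0 and 0.06 at E10.5, beside -0.07 and -0.03 for the 2090 genes under 2000 bases. With each embryo's trend on exon length entered as an offset in edgeR's quasi-likelihood test, the log2 fold changes at E10.0 were 0.59 for *Vcan* (adjusted *P*=0.0677), 0.66 for *Has2* (0.0336), 0.48 for *Adamts5* (0.0826) and 0.42 for *Adamts9* (0.0812). All 4 genes kept their calls. The part of transcript length in the remaining differences was not tested.

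**Figure D3:**
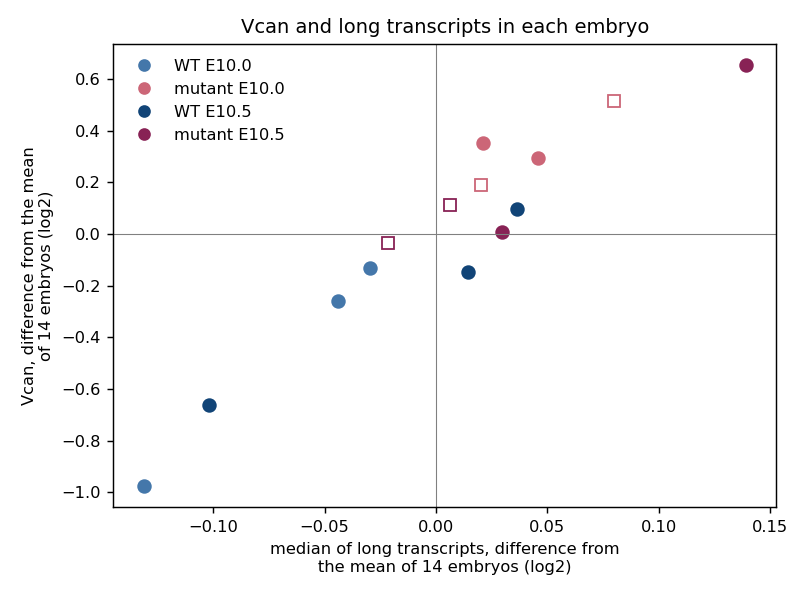
*Vcan* (vertical axis) against the median of long transcripts of at least 8000 exon bases (horizontal axis) in each of the 14 embryos, both as log2 difference from the mean of all embryos; open squares are mutant replicates 4 and 5. The 2 lowest embryos are wild types (*Vcan* at -0.98 and -0.66) and the highest is a mutant at E10.5 (0.65).

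*Hapln1*, the gene beside *Vcan*, did not share its difference at E10.0. It was at 109, 123 and 90.7 CPM in the wild types and at 111, 134, 93.3 and 92.6 CPM in the mutants, a log2 fold change of 0.00. The groups overlapped throughout.

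At E10.5 *Hapln1* was at 86.3, 86.5 and 99.6 CPM in the wild types and at 60.7, 84.5, 63.5 and 61.7 CPM in mutants. All mutants were below all wild types, and replicate 2 was well above the other mutants. Its log2 fold change was -0.43 (SE 0.13, adjusted *P*=0.0638), a fall to 0.745 of wild type. This call was lost in 11 of 24 alternatives, among them the quasi-likelihood test (adjusted *P*=0.209), DESeq2 (0.104), replicates 1 to 3 alone (0.264) and the length offset (0.205), with the lowest at 0.00347 and the highest at 0.379 when wild-type replicate 3 was left out. It was also lost without wild-type replicate 1 (0.125) or 2 (0.152) and without mutant replicate 1 (0.233), 4 (0.207) or 5 (0.251).

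*Hapln1* fell between stages in mutants, by 0.67 on the log2 scale (SE 0.17, adjusted *P*=5.83e-06), while the log2 change of -0.25 in wild type did not pass (adjusted *P*=0.334). The mutants at E10.0 (92.6 to 134 CPM) and E10.5 (60.7 to 84.5 CPM) did not overlap. The difference between both changes, tested as the interaction of stage and genotype with edgeR's quasi-likelihood test, was -0.43 and did not pass (adjusted *P*=0.877).

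The ratio of *Vcan* to *Hapln1* per exon length averaged 0.872 ± 0.143 over the 3 wild types and 1.53 ± 0.318 over the 4 mutants (± SD) at E10.0. At E10.5 it averaged 1.203 ± 0.243 and 2.24 ± 0.752. No embryo of a mutant group was below the wild types of its stage, whose highest ratios were 0.971 and 1.36. The lowest mutant ratios were 1.21 and 1.51. The ratio is a description with no test. Pearson's *r* with the median of long transcripts was 0.95 for *Vcan* and -0.19 for *Hapln1* over the 14 embryos. The part of transcript length in the ratio was not tested.

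Among genes with a mean of at least 10 CPM, the 3 most like *Vcan* over the 14 embryos were *Apc*, *Macf1* and *Mycbp2* (Pearson's *r* of log2 levels 0.98, 0.98 and 0.98), whose exons span 15750, 26705 and 19251 bases. Those most like *Hapln1* were *Alx1* (0.96), *Slc38a4* (0.95) and *Nhp2l1* (0.95), and those most like *Has2* were *Uhrf1bp1l* (0.94), *Rasgrp3* (0.94) and *Ttc37* (0.93). They were ranked among 8840 genes, and all values come from the same libraries. The 3 genes most like *Vcan* were all longer than *Vcan*. Those most like *Hapln1* (5055 exon bases) had 2130 to 4030 exon bases, and those most like *Has2* (4237) had 4925 to 7283. The part of transcript length in these likenesses was not tested.

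*Cd44*, the hyaluronan receptor, did not pass the test between genotypes, with log2 fold changes of 0.11 at E10.0 (adjusted *P*=0.750) and -0.03 at E10.5 (0.990). It fell between stages in both. In wild type it was at 13.6, 17.0 and 13.5 CPM at E10.0 and at 9.51, 10.7 and 8.64 CPM at E10.5, and in mutants at 18.2, 16.7, 16.2 and 12.3 CPM and at 8.65, 10.5, 9.59 and 8.88 CPM. The stages did not overlap in either genotype.

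The log2 fold change of *Cd44* from E10.0 to E10.5 was -0.61 in wild type (SE 0.13, adjusted *P*=0.00329) and -0.75 in mutants (SE 0.13, adjusted *P*=1.16e-06). Both calls held in every alternative fit. Of the macrophage markers, 4 of 4 tested were higher at E10.5 in both genotypes. The sum of 5 went from between 2.25 and 4.97 CPM to between 10.1 and 11.9 CPM in wild type, and from between 5.35 and 6.63 CPM to between 10.6 and 17.8 CPM in mutants. The part of these cells in the level of *Cd44* was not tested.

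*Hyal2*, whose product cleaves large hyaluronan, was at 77.8, 80.3 and 77.9 CPM in the wild types and at 54.6, 66.9, 86.9 and 70.9 CPM in mutants at E10.0. The mutants lay on both sides of the wild types, and the log2 fold change of -0.17 did not pass (adjusted *P*=0.548). Mutant replicates 4 and 5 were 0.37 higher on the log2 scale than the other mutants at E10.0 and 0.30 higher at E10.5. With replicates 1 to 3 alone, *Hyal2* was downregulated at E10.0 (-0.36 log2, adjusted *P*=0.0393), and over all alternatives the adjusted *P* ran from 0.0393 to 0.890.

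At E10.5 *Hyal2* was at 72.7, 60.7 and 55.1 CPM in wild type, with no overlap of the stages, and in mutants at 45.9, 57.0, 64.3 and 62.04 CPM, with overlap. Between stages the log2 fold changes were -0.32 in wild type (SE 0.12, adjusted *P*=0.168) and -0.28 in mutants (adjusted *P*=0.102), and neither passed. Blocking by replicate number in edgeR's quasi-likelihood test gave -0.30 in mutants (adjusted *P*=0.0574), and -0.29 when fitted over mutants alone (adjusted *P*=0.0215). Among mutants, only the numbers 1, 4 and 5 occur at both stages. Same-numbered mutants deviated together, but so did some differently numbered ones, and a pairing of embryos was not shown. No change of *Hyal2* is therefore read from the blocked fits. *Hyal2* passed in 6 of 24 alternatives in wild type (adjusted *P* from 0.0141 to 0.638) and in 7 of 25 in mutants (0.0101 to 0.409).

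*Adamts1*, the most abundant of the 4 proteases per length, did not pass between genotypes at either stage, with log2 fold changes of 0.09 (adjusted *P*=0.771) and -0.14 (0.846). In mutants it fell from 40.8, 54.2, 46.3 and 44.1 CPM at E10.0 to 38.5, 38.8, 36.2 and 28.1 CPM at E10.5, without overlap. The change was -0.39 in log2 (SE 0.14, adjusted *P*=0.00849). With replicates 1 to 3 alone it was -0.29 and no longer passed (adjusted *P*=0.172, the highest of 25 alternatives, with the lowest at 0.00256). In wild type the change of -0.15 did not pass (adjusted *P*=0.557).

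*Adamts5*, the tandem neighbour of *Adamts1*, had, at E10.5, the largest genotype difference of the 10 genes. At E10.0 it was at 3.52, 4.33 and 3.45 CPM in the wild types and at 6.34, 4.62, 5.51 and 5.43 CPM in mutants. At E10.5 the wild types were at 3.22, 4.22 and 4.53 CPM and the mutants at 10.9, 9.61, 9.73 and 10.2 CPM. All mutants were above all wild types at both stages, and the 4 mutants at E10.5 lay close together. These values rest on 134 to 615 reads per embryo.

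The difference of *Adamts5* in log2 was 0.54 at E10.0 (SE 0.11, adjusted *P*=0.0271) and 1.34 at E10.5 (SE 0.12, adjusted *P*=6.38e-14), or 1.45- and 2.53-fold. The call at E10.0 was lost without wild-type replicate 1 (0.49, adjusted *P*=0.146) or 3 (0.49, adjusted *P*=0.245), and the call at E10.5 in none of 24 alternatives. *Adamts5* rose between stages in mutants by 0.88 on the log2 scale (SE 0.09, adjusted *P*=2.92e-08), while the change in wild type was 0.08 (adjusted *P*=0.851).

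*Adamts9*, a protease with a long transcript of 12527 exon bases, was at 17.3, 17.2 and 14.1 CPM in the wild types and at 20.9, 28.1, 27.0 and 19.9 CPM in mutants at E10.0. All mutants were above all wild types. This was a log2 fold change of 0.57 (SE 0.15, adjusted *P*=0.00325), a 1.48-fold rise that passed in every alternative (adjusted *P* from 0.000547 to 0.0963).

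At E10.5 *Adamts9* was at 20.9, 18.5 and 21.3 CPM in the wild types and at 29.2, 26.5, 26.2 and 21.3 CPM in mutants. Mutant replicate 5 was level with the highest wild type. The log2 fold change of 0.35 (SE 0.11) did not pass (adjusted *P*=0.215), and it passed in 3 of 24 alternatives (adjusted *P* from 0.0291 to 0.774), among them replicates 1 to 3 alone (0.47). Between stages *Adamts9* did not pass in wild type (0.32, adjusted *P*=0.181) or in mutants (0.11, adjusted *P*=0.645). In wild type it passed in 2 of 24 alternatives (adjusted *P* from 0.0357 to 0.521), 1 of them with replicates 1 to 3 alone (0.33, adjusted *P*=0.0585).

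*Adamts20*, which acts with ADAMTS9 in versican cleavage in the mouse, was the only one of the 4 proteases to be downregulated between genotypes. At E10.0 it was at 7.63, 9.25 and 9.21 CPM in the wild types and at 8.70, 10.7, 7.23 and 9.07 CPM in the mutants, with overlapping groups. At E10.5 the wild types were at 8.23, 11.1 and 10.4 CPM and the mutants at 6.29, 6.55, 5.40 and 4.65 CPM, all below the wild types. Between 143 and 618 reads per embryo stand behind these values.

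The difference of *Adamts20* in log2 was 0.04 at E10.0 (adjusted *P*=0.943) and -0.78 at E10.5 (SE 0.15, adjusted *P*=0.000176), a fall to 0.581 of wild type. The latter call held in all 24 alternatives (adjusted *P* up to 0.0368), with a log2 fold change of -0.62 for replicates 1 to 3 alone. Between stages *Adamts20* fell in mutants by 0.64 on the log2 scale (SE 0.14, adjusted *P*=0.000511), and the change of 0.19 in wild type did not pass (adjusted *P*=0.578).

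**Figure D4:**
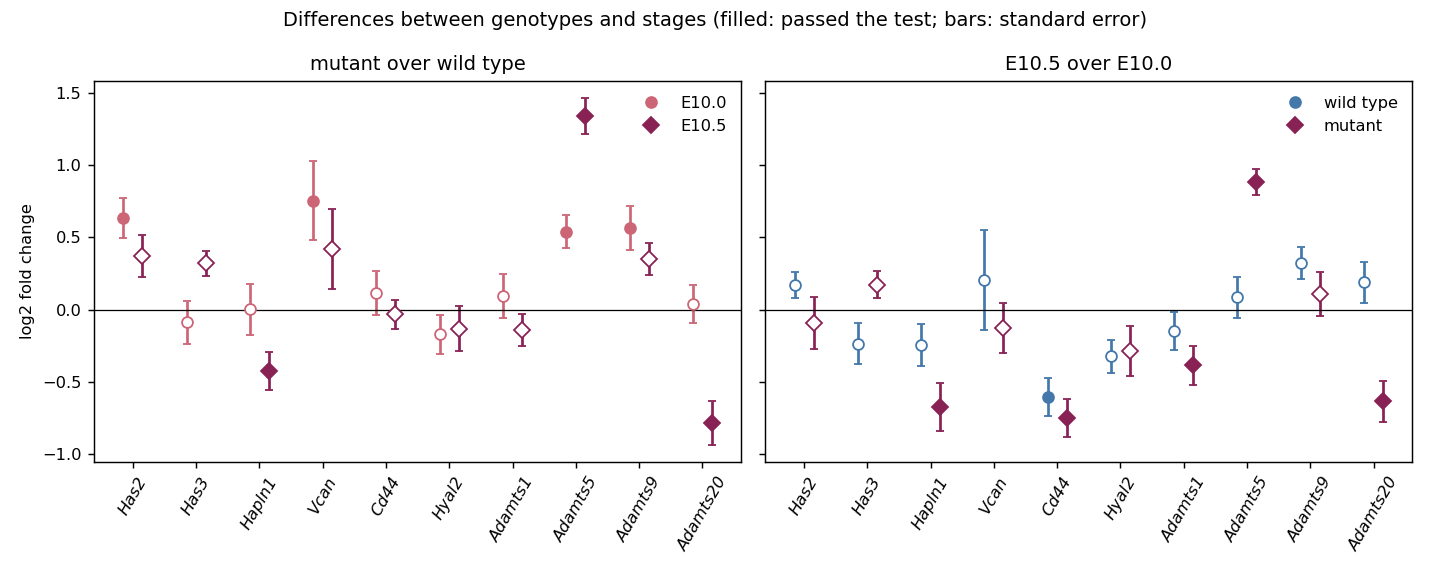
Log2 fold changes (vertical axis) of the 10 genes, mutant over wild type on the left and E10.5 over E10.0 on the right, with standard errors as bars and filled symbols for genes that passed the test. On the left, *Adamts5* stands at 0.54 and 1.34 and *Adamts20* at 0.04 and -0.78 for E10.0 and E10.5.

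At E10.5, then, 3 of the 10 genes were called between genotypes, *Adamts5* as upregulated and *Hapln1* and *Adamts20* as downregulated, beside 2.19% and 1.54% of all tested genes. The groups of 5 genes did not overlap, beside 13% of all genes. The median log2 fold change of the 10 genes was 0.14, and that of all genes -0.01.

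Between stages, 1 of the 10 genes passed in wild type (*Cd44*, downregulated), beside 5.39% of all genes upregulated and 4.74% downregulated. In mutants 5 passed, *Adamts5* as upregulated and *Hapln1*, *Cd44*, *Adamts1* and *Adamts20* as downregulated, beside 10.8% and 8.4% of all genes. Stages did not overlap for 3 of the 10 genes in wild type (37% of all genes) and for 5 in mutants (20%). The median log2 fold changes of the 10 genes were -0.03 in wild type and -0.21 in mutants, and those of all genes -0.01 in both. The genotype and stage comparisons share embryos and are given side by side.

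With replicates 1 to 3 alone, 12288 genes were tested and 5 of the 10 genes were called between genotypes at E10.0, beside 16.4% of all genes. The fifth was *Hyal2*. At E10.5 the called genes were *Has2*, *Adamts5*, *Adamts9* and *Adamts20*, 4 in number beside 4.27%. Between stages there were 3 in wild type (*Cd44*, *Hyal2* and *Adamts9*, beside 14.9%) and 4 in mutants (*Hapln1*, *Cd44*, *Adamts5* and *Adamts20*, beside 17.5%). Log2 fold changes that did not pass in either fit moved as well, as for *Hapln1* (0.00 to 0.20) and *Cd44* (0.11 to 0.27) at E10.0 and *Adamts1* (-0.14 to -0.01) at E10.5.

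The interaction of stage and genotype asks whether the genotype difference changed between E10.0 and E10.5. None of the 10 genes passed it in edgeR's quasi-likelihood test, beside 0.186% of all tested genes (23 genes, 0.0565% higher and 0.129% lower). Lowest in adjusted *P* were *Adamts5*, with a difference of 0.80 (0.257), and *Adamts20*, with -0.82 (0.300), both from the fit over all genes. In DESeq2, which also called more of all tested genes, both passed (0.79 and -0.84, adjusted *P*=0.0264 and 0.0313). Over all 22 alternatives the adjusted *P* reached 0.558 and 0.720.

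The summed level of the 4 proteases per length is given as a description with no test, averaging 10.9 ± 1.51 RPKM over the 3 wild types and 12.3 ± 1.37 RPKM over the 4 mutants (± SD) at E10.0 and 10.6 ± 0.526 and 10.6 ± 1.29 RPKM at E10.5. Its makeup differed more in these means. The share of *Adamts1* was 74.9% ± 1.65 and 70.9% ± 1.24 at the earlier stage and 69.7% ± 0.836 and 62.8% ± 1.77 at E10.5, in wild type and mutants. *Adamts5* had 4.27% ± 0.038 and 5.59% ± 1.25 of the sum at the earlier stage and 4.63% ± 0.585 and 11.9% ± 1.67 at E10.5. The share of *Adamts20* at E10.5 was 10.4% ± 1.11 in wild type and 5.98% ± 0.339 in mutants, so that *Adamts5* ranked above *Adamts20* in mutants and below it in wild type. *Adamts9* had 11.9% ± 1.49 and 15.5% ± 1.55 at the earlier stage and 15.3% ± 1.55 and 19.4% ± 0.575 at E10.5. At E10.0 the share of *Adamts20* was 8.92% ± 1.17 in wild type and 8.06% ± 1.06 in mutants, with overlapping embryos. The share of *Adamts5* overlapped there too (4.23% to 4.30% in wild type, 4.02% to 7.05% in mutants). The part of transcript length in these shares was not tested.

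Markers of other cells in the sample also moved between groups. Both tested mesothelium markers, *Wt1* and *Upk3b*, were higher in mutants at E10.0 (log2 fold changes 2.38 and 3.35) and lower at E10.5 (-1.42 and -1.76), the sum of 3 markers with *Msln* running from 1.08 to 2.64 CPM in the wild types and from 7.94 to 18.3 CPM in the mutants at E10.0. At E10.5 that sum was 2.90 to 5.49 CPM in the wild types and 0.586 to 2.38 CPM in mutants. Of 7 limb mesenchyme markers, 3 were lower in mutants at E10.0, and 2 lower and 1 higher at E10.5. *Prrx2*, lower at both stages (-1.01 and -0.83), is itself a SMAD4 target gene in the study. None of 6 endothelium markers and 1 of 8 ectoderm markers, which was lower at E10.0, passed between genotypes. At E10.0, 1 of 4 muscle precursor markers and 1 of 4 tested macrophage markers were higher and the 2 tested sclerotome markers went in opposite directions, while at E10.5 1 of these 2 was lower and no other passed. None of the 3 tested erythroid markers passed, and no neural crest marker was abundant enough to be tested.

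Markers also moved between stages, where *Hapln1*, *Adamts1*, *Adamts5* and *Adamts20* were called in mutants and *Cd44* in both genotypes. In mutants both mesothelium markers fell (*Wt1* -2.67 and *Upk3b* -4.14 in log2), and in wild type 1 of them was higher (*Wt1*, 1.13). *Pax1*, a sclerotome marker, rose by 2.53 in wild type and 2.79 in mutants, and *Myf5*, a muscle precursor marker, by 3.15 and 1.62, while *Lbx1* fell in wild type (-0.78) and *Pax3* in mutants (-0.35). Of 7 limb mesenchyme markers, 2 were lower in wild type, and 2 were higher and 3 lower in mutants. In mutants 1 of 8 ectoderm markers was higher and 2 were lower, 1 of 6 endothelium markers was lower and 1 sclerotome marker was lower, and none of these passed in wild type. No erythroid marker passed. The part of the markers' cells in the genotype and stage differences of the 10 genes was not tested.

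A wider list of 75 genes of the same matrix gives the setting, of which 57 were tested. At E10.0, 2 of them were upregulated and 3 downregulated, 8.77% in all beside 6.61% of all tested genes, and at E10.5 1 and 1, 3.51% beside 3.73%. The shares in both genotype comparisons were close to those of all genes. None of the 20 tested genes of chondroitin sulfate synthesis rose, and only *B3galt6*, a galactosyltransferase of the linker to the core protein, fell at E10.0 (-0.37, adjusted *P*=0.0958) and none at E10.5.

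The wider list's upregulated genes at E10.0 were *Tnc*, encoding the versican-binding tenascin C (log2 fold change 1.68, adjusted *P*=0.0314), and *Stab2*, a hyaluronan scavenger receptor (0.85, adjusted *P*=0.0591, at 0.865 and 1.57 CPM). *Tnc* was at 6.61 ± 5.47 CPM in the wild types and 21.2 ± 10.1 CPM in mutants, with overlapping embryos. *Adamts4*, a protease of aggrecan and versican (-0.61, adjusted *P*=0.0620), and *Ptx3*, a pentraxin of hyaluronan matrices (-0.48, adjusted *P*=0.0687), fell. At E10.5 *Adamtsl2* rose (0.70, adjusted *P*=0.00983) and the ADAMTS gene *Adamts19* fell (-0.36, adjusted *P*=0.0883).

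Between stages the wider list had 6 upregulated and 3 downregulated genes in wild type (15.8% beside 10.1%) and 12 and 10 in mutants (38.6% beside 19.2%). The metalloprotease inhibitor gene *Timp3* rose in both, by 0.73 in wild type (adjusted *P*=9.75e-08) and 0.73 in mutants (6.92e-11), on the log2 scale. *Adamtsl2* rose by 1.36 (adjusted *P*=1.06e-07) and 2.26 (2.48e-29) and *Adamts17* by 0.83 (0.00100) and 0.98 (2.86e-07). *Chpf*, a chondroitin polymerase subunit, fell in both (-0.92, adjusted *P*=0.00182, and -0.68, adjusted *P*=0.00520), and so did *Adamts18* (-0.53, adjusted *P*=0.0557, and -0.87, adjusted *P*=3.52e-06). *Ptx3* fell in both too (-0.58, adjusted *P*=0.0228, and -0.54, adjusted *P*=0.00747), and *Adamts6* rose in both (0.48, adjusted *P*=0.0473, and 0.71, adjusted *P*=1.28e-05). *Adamts19* rose in wild type (0.58, adjusted *P*=0.000714), with 0.15 in mutants (adjusted *P*=0.427). In mutants *Tnc* (-2.79, adjusted *P*=2.99e-07) and *Stab2* (-0.89, adjusted *P*=0.00673) fell, with -0.18 (adjusted *P*=0.899) and -0.63 (adjusted *P*=0.257) in wild type. None of the 57 passed the interaction test in edgeR.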

How the data were processed

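Per the labels and the study's methods, polyA libraries from both forelimb buds of 1 embryo were sequenced as single reads of 50 cycles, aligned by the authors to mm9 with TopHat2 2.0.13, and counted per gene from unique reads with HTSeq without regard to strand. The deposited values are these raw counts, not normalised, for 14 embryos in 4 groups. No column belonged to samples of another series, and no sample was left out. The depth of 34066930 to 61691258 reads sets the precision of genes of few CPM.

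Following the study, the 1041 genes of chromosomes X, Y and M, and those that did not reach 1 CPM in at least 3 embryos, were left out, and the other 12393 were tested with edgeR 4.0.16 (R 4.3.3). Libraries were scaled by TMM (factors 0.934 to 1.035), dispersions were estimated over all 14 embryos (prior of 10 degrees of freedom), and groups were compared with the exact test and Benjamini-Hochberg adjustment, calling genes at an adjusted P of at most 0.1 and a fold of at least 1.2. The interaction was tested with the quasi-likelihood test. Standard errors were taken from log2(CPM + 1) of the embryos and are understated at few CPM. The fits were tested on simulated data. RPKM values used the exon union of each gene in the mm9 annotation of GENCODE, which may differ from the refGene models counted, and promoter windows came from RefSeq (GRCm38.p6), so their coordinates are not on mm9.

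The 10 genes, the wider list and the marker lists were chosen with earlier results of these data known. Named were the 10 genes, Smad4, per comparison and direction the called genes of the wider list with the 4 smallest P, and for Has2, Hapln1 and Vcan the 3 genes most like them. Of the markers, Hba-a1 had no read in any group and Foxd3 none in wild type at E10.0. Alternatives were the quasi-likelihood test without and with the replicate number as a block, DESeq2 1.42.0, RLE size factors, scaling without Rn45s reads, no filter, a filter at 5 CPM, fits of only the groups compared, replicates 1 to 3 alone and leaving out each embryo. Leaving out each embryo gave 14 fits per comparison, also where the embryo was in neither group compared. Such a fit changed a comparison only through the shared dispersions, filter and scaling. The length offset and the blocked fit over mutants alone were chosen after seeing the data. Replicate numbers come from the sample titles. Deviations from the group means of same-numbered mutants of both stages correlated at 0.27 to 0.61 in all 3 pairs. Differently numbered mutants did so too, as 4 with 5 (0.38), 5 with 4 (0.29), 1 with 2 (0.35) and 3 with 2 (0.32). Mutant replicates 4 and 5 correlated negatively with the others (-0.59 to -0.17). The numbers therefore do not show a pairing of embryos. In the other comparisons same-numbered embryos correlated at -0.28 to 0.17. Replicates of a group differed by more than sampling noise and were counted singly.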

Additional observations from a re-analysis of the deposited data

Results flagged for a closer look

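Among 20 sets of 4 mutant embryos (10 genes at 2 stages), 1 held an embryo far from the others. *Hapln1* in mutant replicate 2 at E10.5 was at 84.5 CPM, while the other 3 mutants were at 60.7 to 63.5 CPM, and its gap to the nearest was 0.882 of the whole range. Chance alone flags about 1 in 20 such sets. Groups of 3 wild types were not tested in this way. *Hapln1* in that embryo was still below the lowest wild type (86.3 CPM).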

How the results depend on the processing

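No called value changed its direction under any alternative. Of 1185 single values of the 10 genes, 1144 kept their side of the threshold, 15 lost a call and 26 gained one. The count of called genes among the 10 moved in wild type between stages, from 1 to 3 with only the 2 groups compared, 2 with the replicate block and 3 with replicates 1 to 3 alone, and for the interaction from 0 to 2 with DESeq2. Over all genes, the calls between genotypes at E10.0 moved from 819 to 1961 with the replicate block and 2018 with replicates 1 to 3 alone, and at E10.5 from 462 to 280 with the replicate block. The stage calls in wild type moved from 1256 to 1932 with only the 2 groups compared. The 23 interaction calls became 85 with DESeq2, 39 with no filter, 5 with the filter at 5 CPM and 6 with replicates 1 to 3 alone. The cause was not tested, beyond the fewer embryos or genes in some fits. No wild type had the replicate number 4 or 5, so the replicate block compares genotypes mainly over replicates 1 to 3. These alternatives therefore overlap.

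Leaving out 1 embryo at a time gave 2 to 4 called members of the 10 at E10.0 and 2 to 4 at E10.5 between genotypes, 1 to 2 between stages in wild type, 5 to 6 in mutants and 0 for the interaction. Over all genes the ranges were 254 to 1062, 286 to 516, 484 to 1515, 1895 to 2732 and 7 to 34. The lowest count at E10.0, 2, was without wild-type replicate 3. Beside *Hyal2*, the replicate block changed no call between stages in mutants. In the other comparisons it gave *Has2* at E10.5 a call (0.50, adjusted *P*=0.0536) and took that of *Hapln1* (-0.27, adjusted *P*=0.339). It also called *Hyal2* at E10.0 (-0.34, adjusted *P*=0.0791) and between stages in wild type (-0.32, adjusted *P*=0.0855), all in edgeR's quasi-likelihood test. With 3 or 4 embryos a group, differences under the embryos' spread were not detectable, and *Has3*, *Adamts5* and *Adamts20* rest on 93 to 618 reads per embryo.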
